A study of Mus musculus with 12 samples.

Results

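H3K27ac peak lists from 6 libraries of mouse neural progenitors were compared, 3 from cells without Setdb1 and 3 from wild-type cells, out of 12 libraries in the series. The 6 lists were taken by their antibody label, and their peaks on chromosomes 1 to 19 were joined wherever they shared 1 bp, which gave 61552 merged regions in mm10. Every culture was of the strain C57BL/6 and was a neurosphere culture, floating spheres of dividing progenitors, grown from the ganglionic eminence of an embryo at E15.5. The knockout (KO) cells carry the genotype label Nestin-KO and the controls the label WT. The labels do not describe the allele, the Cre or the promoter that drives it beyond that name. Each library was a native ChIP, made without crosslinking, from 100000 nuclei of 1 of 3 animals per genotype. In each genotype replicate 1 was a female and replicates 2 and 3 were males. The first number in the sample titles is shared by the 2 females and, with another value, by the 4 males, so sex and title number coincide, and what the number marks is not stated in the labels.

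H3K27ac is acetylation of lysine 27 on histone H3, placed by the enzymes EP300 and CREBBP at active promoters and enhancers. SETDB1 is a histone methyltransferase that places H3K9me3, a mark of silenced chromatin, and is brought to its targets by zinc finger proteins through TRIM28, with ATF7IP as a partner. The ganglionic eminence is the embryonic source of cortical interneurons and striatal neurons. In bulk chromatin a peak that is missing can mean fewer cells with the mark or less of the mark in each cell, and the lists cannot tell these apart.

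The promoter windows below are those of the targeted gene and of genes whose start regions are named in the comparisons, whether or not they passed a test. A peak in a start region need not overlap the window. That of Setdb1 overlapped a peak in KO replicate 1 and WT replicates 1 and 2 only. They run from 250 bases before to 50 bases after the gene start, 5′ to 3′ on the gene's strand, and come from RefSeq on GRCm38.p6. Capitals mark each CG, which reads the same on both strands. There are 31396 such windows on chromosomes 1 to 19, from the 25748 genes whose strand is given in the reference. Of these windows, 94.8% hold at least 1 CG and 44.0% hold at least 10. Setdb1 (chr3:95357153-95357452, minus strand, 15 CG) is the targeted gene. Gm38450 (chr4:23260534-23260833, plus strand, 4 CG) starts in a region with peaks in all 3 KO lists and no WT list. Gm35071 (chr12:52446141-52446440, plus strand, 4 CG) starts in a region with peaks in all 3 WT lists and no KO list. Itfg2 (chr6:128424861-128425160, minus strand, 15 CG) and Fis1 (chr5:136953025-136953324, plus strand, 21 CG) are start regions with leading rank differences in opposite directions. Atf7ip (chr6:136518601-136518900, plus strand, 29 CG) encodes the partner of SETDB1.
Setdb1: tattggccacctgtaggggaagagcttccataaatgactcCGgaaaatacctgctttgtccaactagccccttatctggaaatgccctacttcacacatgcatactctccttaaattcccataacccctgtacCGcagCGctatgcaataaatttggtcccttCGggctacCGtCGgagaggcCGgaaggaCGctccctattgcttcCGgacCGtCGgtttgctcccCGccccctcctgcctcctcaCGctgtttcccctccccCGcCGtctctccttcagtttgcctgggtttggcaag
Gm38450: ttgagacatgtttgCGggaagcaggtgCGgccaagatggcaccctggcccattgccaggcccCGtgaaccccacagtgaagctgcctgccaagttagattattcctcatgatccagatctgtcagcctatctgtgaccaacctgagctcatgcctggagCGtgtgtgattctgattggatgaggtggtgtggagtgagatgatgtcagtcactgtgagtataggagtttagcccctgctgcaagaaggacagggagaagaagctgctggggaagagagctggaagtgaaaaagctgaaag
Gm35071: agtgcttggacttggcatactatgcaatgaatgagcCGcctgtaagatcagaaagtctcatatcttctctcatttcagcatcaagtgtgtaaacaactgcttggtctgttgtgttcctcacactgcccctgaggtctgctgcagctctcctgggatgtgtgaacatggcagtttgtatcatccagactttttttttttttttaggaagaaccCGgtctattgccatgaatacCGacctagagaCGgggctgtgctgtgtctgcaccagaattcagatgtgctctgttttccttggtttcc
Itfg2: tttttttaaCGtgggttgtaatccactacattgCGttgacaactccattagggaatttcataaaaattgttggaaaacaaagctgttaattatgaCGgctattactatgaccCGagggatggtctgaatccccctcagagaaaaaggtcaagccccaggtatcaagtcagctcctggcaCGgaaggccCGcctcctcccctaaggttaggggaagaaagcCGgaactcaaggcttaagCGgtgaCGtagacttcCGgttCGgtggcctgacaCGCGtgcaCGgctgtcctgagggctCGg
Fis1: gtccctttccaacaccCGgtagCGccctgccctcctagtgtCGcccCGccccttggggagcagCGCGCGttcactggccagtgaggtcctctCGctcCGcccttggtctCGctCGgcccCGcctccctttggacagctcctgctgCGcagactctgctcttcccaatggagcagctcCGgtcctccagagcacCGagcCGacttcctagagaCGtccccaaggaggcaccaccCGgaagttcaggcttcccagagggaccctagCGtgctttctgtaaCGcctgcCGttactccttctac
Atf7ip: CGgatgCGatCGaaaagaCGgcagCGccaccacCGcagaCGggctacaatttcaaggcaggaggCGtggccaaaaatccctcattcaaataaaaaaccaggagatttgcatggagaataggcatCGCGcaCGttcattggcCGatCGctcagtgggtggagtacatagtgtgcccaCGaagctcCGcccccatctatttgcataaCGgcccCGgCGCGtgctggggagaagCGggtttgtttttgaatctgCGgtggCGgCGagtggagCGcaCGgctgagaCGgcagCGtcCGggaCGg

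Windows with a peak in all 6 lists held a median of 23 CG (1180 windows), and windows with no peak held 4 (21468 windows). Windows with a peak in 2 or 3 KO lists and no WT list held a median of 17 CG (142 windows). Those with a peak in 2 or 3 WT lists and no KO list held 24 (180 windows). The windows of Gm38450 and Gm35071 were thus at the median of windows without any peak, while that of Atf7ip was above the median of windows with 6 peaks. These are counts in reference sequence, and CG-rich windows differ from others in many properties. Genes without a given strand, those of chromosome 18 among them, have no window and are not counted.

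The lists were of very unequal length, and this bears on every result that follows. KO replicates 1 to 3 held 25880, 41705 and 11252 peaks on chromosomes 1 to 19, and WT replicates 1 to 3 held 31354, 36516 and 12111. The means were 26279 ± 15230 (SD, n = 3) and 26660 ± 12862 (SD, n = 3), which did not differ beyond the spread (two-sided exact permutation test, p = 0.9, where 3 against 3 cannot go below 0.1). The female KO list held fewer peaks than the female WT list, and the male KO lists had the higher mean, with 26478.5 against 24313.5. Over all libraries the sign of the difference turned without KO replicate 3, WT replicate 1 or WT replicate 2. The depth of the libraries is unknown. The largest overlaps joined KO and WT libraries: as a fraction of the regions found in either, 0.572 were shared by KO and WT replicate 2, 0.442 by KO and WT replicate 3 and 0.436 by KO and WT replicate 1. The peaks matched the labelled sex in all 6 libraries, with Xist peaks in the 2 female libraries only and Uty peaks in the 4 male libraries only. Of 47042 genes in the reference, 15080 (32.1%) had a start peak in at least 1 list. Progenitor genes had one at 15 of 18, and cell cycle genes at 17 of 18. Of 12 pan-GABAergic genes, which mark the interneuron lineage of the eminence, 2 had a start peak in any list, Dlx1 among them. Both had it in WT replicates 1 and 2 alone. Dlx2, Dlx5, Dlx6, Gad1 and Gad2 had none in any list. Start peaks were seen at 2 of 11 microglial and blood genes and 1 of 12 vascular and meningeal genes.

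**Figure D1:**
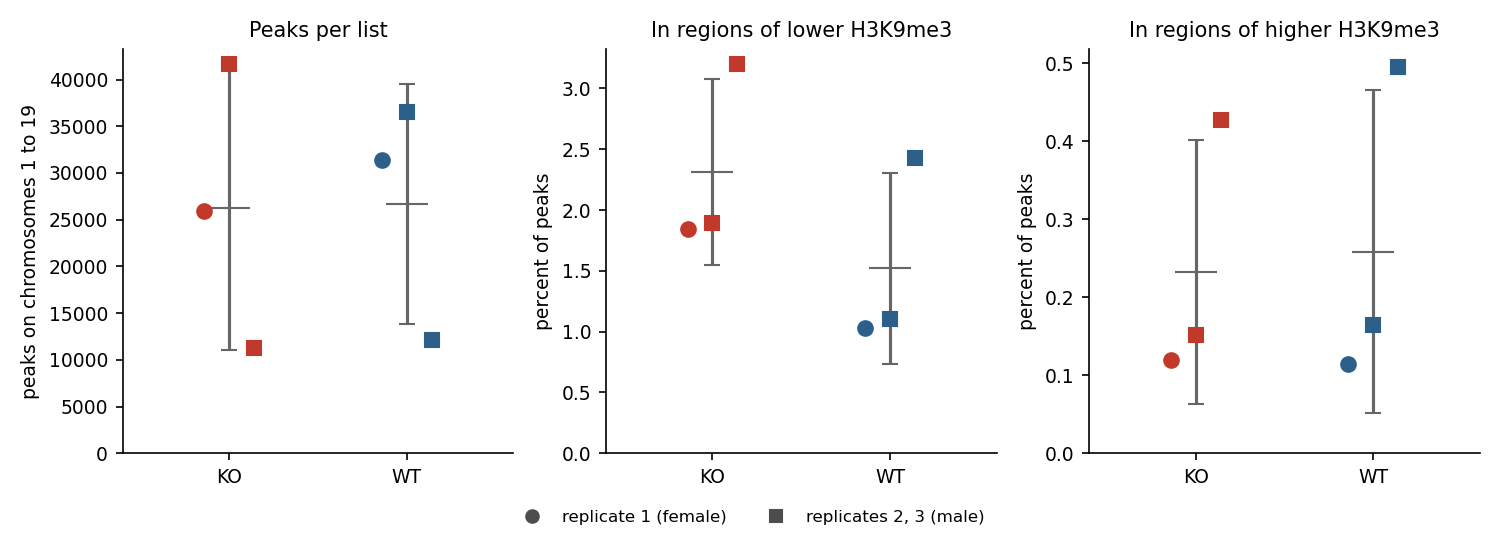
Each panel shows 1 value per H3K27ac list for KO and WT, with the mean and SD of 3 libraries in grey; circles are the females (replicate 1) and squares the males (replicates 2 and 3). The y axes give the number of peaks, and the percent of peaks in regions that the authors list as lower or as higher in H3K9me3. The lists run from 11252 to 41705 peaks, and the share in lower H3K9me3 is higher in each KO library than in the WT library of the same replicate number.

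At Setdb1 itself, the start region (chr3:95356227-95357337) had an H3K27ac peak in all 3 KO lists and in 2 of 3 WT lists. The authors' fold enrichment there was 5.07, 6.03 and 3.94 in KO replicates 1 to 3 and 8.11 and 5.12 in WT replicates 1 and 2, with no peak in WT replicate 3. In the females KO was under WT. In the males KO replicate 2 was above and KO replicate 3 under WT replicate 2, the only male WT list with a peak there. A peak at the gene start does not test whether the gene's protein was lost, and the deleted part of the gene is not given in the labels.

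Nes encodes nestin, an intermediate filament protein of neural progenitors, and gives the knockout its label. One region inside the gene (chr3:87973419-87974891, 2326 to 3798 bp after the gene start) had a peak in all 6 lists. Among the 4672 regions with a peak in every list, its fold enrichment ranked at percentiles 23.2, 25.4 and 79.5 in KO replicates 1 to 3 and at 0.642, 5.71 and 10.7 in WT. All 3 KO libraries were above all 3 WT libraries, and KO was above WT by 1.76 normal scores in the females and by 1.49 in the males. The authors' fold enrichment was 4.61, 4.86 and 5.67 in KO and 3.19, 3.82 and 3.59 in WT. The difference of 1.58 normal scores (SE 0.44; a normal score is the rank of a region in a library on a standard normal scale) had the second smallest p of the 4672 regions and did not pass (limma, adjusted p = 0.9996). Peaks near the start of Nes appeared only in WT, 1 in WT replicate 1 and 1 in WT replicate 2. The construct behind the label was not analysed here.

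Peaks in one genotype only were compared with H3K9me3, which the authors measured in other animals of the same genotypes, going by the titles, and deposited as a table of 33823 lower and 14115 higher regions in KO on these chromosomes. In that assay 1 KO and 1 WT library share a first title number, while the other 2 KO libraries have another number, and the other 2 WT libraries have yet another. Its 3 KO libraries are from males, and its WT libraries are from 1 male and 2 females. In the table, genotype therefore cannot be fully told apart from title number and sex. Moreover, 2 of the 3 H3K9me3 KO libraries carry the first title number of the 2 female H3K27ac libraries. H3K27ac regions that overlapped lower H3K9me3 carried peaks in KO more often than in WT. There were 1157 such regions, 1.88% of all merged regions. Of these, 654 (56.5%) had a peak in more KO than WT lists and 184 (15.9%) in more WT than KO lists. Over all 61552 regions the shares were 33.2% and 33.4%. The 133 regions in higher H3K9me3 had 44 with more KO lists and 55 with more WT lists. The share of regions with more KO lists was 35.4% of 396 where the authors' log2 fold change was above -1, 66.9% of 685 from -2 to -1, and 73.7% of 76 at or below -2. It was 58.7% of 143 regions at gene starts, 57.3% of 496 elsewhere in genes and 55.2% of 518 between genes, against 24.4%, 37.5% and 36.9% of all regions in those places.

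The excess was present in each sex. Among lower H3K9me3 regions that had peaks in 1 genotype only in the females, 247 were KO and 95 were WT, so that KO made up 72.2% against 37.8% of all such regions. In the males the counts were 460 and 78, so that KO made up 85.5% against 63.1%. Of the 247 regions of KO only in the females, 70 (28.3%) were also KO only in the males, against 11.3% of all regions of KO only in the females. Lower H3K9me3 regions without either replicate 3 library, a choice made after seeing the data, gave 55.4% with more KO and 13.0% with more WT lists. Over all regions that choice gave 30.2% and 29.1%. Leaving out KO replicate 2 narrowed the difference in percentage points from 40.6 to 11.7, where all regions went from -0.19 to -40.8.

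Counted over peaks rather than regions, the share in lower H3K9me3 was 1.85% (exact Clopper-Pearson 95% interval 1.69% to 2.02%), 1.89% (1.77% to 2.03%) and 3.20% (2.88% to 3.54%) in KO replicates 1 to 3. In WT it was 1.03% (0.921% to 1.15%), 1.11% (1.00% to 1.22%) and 2.43% (2.16% to 2.72%). Each KO library was above the WT library of the same replicate number, a number given in deposition order that the labels do not use to pair animals, but WT replicate 3 was above KO replicates 1 and 2, so the groups overlapped. The means were 2.31% ± 0.77 and 1.52% ± 0.79 (SD, n = 3; two-sided exact permutation test, p = 0.3). KO was higher by 0.817 percentage points in the females and by 0.780 in the males. The difference over all libraries, 0.792 percentage points, was 0.349 without KO replicate 3 and 1.25 without WT replicate 3. Both replicate 3 lists were the shortest of their genotype and had the highest shares; among the 10000 peaks of each list with the highest −log10 q the shares were 2.3%, 2.65% and 3.36% in KO and 1.81%, 1.99% and 2.77% in WT. The share in higher H3K9me3 was 0.120%, 0.151% and 0.427% in KO and 0.115%, 0.164% and 0.495% in WT (two-sided exact permutation test, p = 0.7). Intervals cover counting error only.

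The largest group of lower H3K9me3 regions with more KO than WT lists lay in the gamma cluster of protocadherins on chromosome 18. Clustered protocadherins are cell adhesion molecules, arranged in alpha, beta and gamma arrays, that give neurons different surface identities. Between chr18:37661781 and chr18:37768190 there were 19 H3K27ac regions in lower H3K9me3. KO replicates 1 to 3 had peaks in 17, 16 and 5 of them, and WT replicates 1 to 3 in 2, 2 and 1. Of the 19, 17 had more KO than WT lists, 0 had more WT lists and 2 were equal. The other 21 regions at the 58 clustered protocadherin genes, outside lower H3K9me3, had peaks in 10, 17 and 4 in KO and 10, 17 and 6 in WT. No region lay at the start end of any of the 22 beta genes, and 1 lay at an alpha gene, Pcdhac2, in 4 lists. The 1 Mb window with this cluster held the most such regions with more KO lists of 633 windows that held any. The window was singled out after its values were seen.

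Pcdhgb4 (chr18:37720402-37720931) had the strongest of these peaks in KO replicates 1 and 3. Its fold enrichments were 8.93, 7.36 and 5.88 in KO replicates 1 to 3, with no peak in WT. Those values stood at percentiles 96.4, 97.2 and 91.3 within their own lists. In the authors' deposited table the H3K9me3 means over it were 135.19 in KO and 749.51 in WT (log2 ratio -2.47). Pcdhga2 (chr18:37668918-37669359) had 5.02, 7.78 and 4.23 in KO and none in WT, and Pcdhga10 (chr18:37746970-37747465) had 4.20, 4.43 and 3.92 and none in WT. The authors' deposited table gives log2 ratios of -2.18 and -2.65 for H3K9me3 over them. Pcdhga1, Pcdhga3, Pcdhgb1, Pcdhgb2, Pcdhga8, Pcdhgb5, Pcdhga11 and Pcdhga12 had peaks in KO replicates 1 and 2 and in no WT list. Pcdhga7 (chr18:37714759-37715311) had a peak in every list, at percentiles 75.9, 90.0 and 74.5 of the 4672 shared regions in KO and 21.8, 52.7 and 12.6 in WT. All 3 KO ranks of Pcdhga7 were above all 3 WT ranks, by 1.5 normal scores (SE 0.47; limma, adjusted p = 0.9996). Pcdhgb8 (chr18:37761745-37762222) was the exception, with fold enrichments of 3.73 and 2.86 in KO replicates 1 and 2 and 5.22 and 5.66 in WT replicates 1 and 2. No strand was given for genes on this chromosome, so the end with the lower coordinate was taken as the start.

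**Figure D2:**
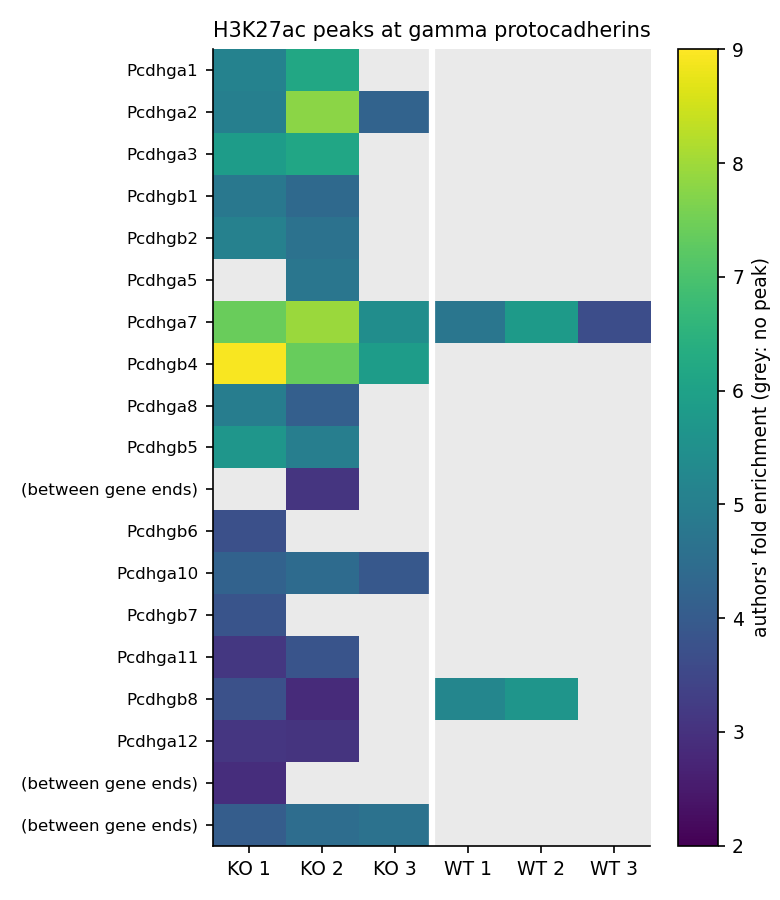
Each row is 1 of the 19 H3K27ac regions in lower H3K9me3 at the gamma protocadherins, named by the gene whose low-coordinate end lies within 1 kb, and each column is 1 library. Colour gives the authors' fold enrichment and grey means no peak; KO columns are filled in 17, 16 and 5 rows and WT columns in 2, 2 and 1.

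Outside this cluster the lower H3K9me3 regions with more KO lists were spread over all 19 chromosomes, from 35.7% of 42 on chromosome 16 to 75.9% of 54 on chromosome 5. Of 143 lower H3K9me3 regions at gene starts, 25 had peaks in 2 or 3 KO lists and no WT list, of which 11 were gamma protocadherins. The others included Rps4l, Zfp872, Tmem211, Mir7212 and 2410018L13Rik, with predicted genes making up most of the rest. A single lower H3K9me3 region at a gene start, that of Gm13169, had peaks in 2 or 3 WT lists and no KO list. Over all regions, gene starts made up 21.7% of the 1060 with peaks in 2 KO lists and no WT list. They made up 27.4% of the 892 with peaks in 2 WT lists and no KO list. For peaks in 3 lists of a genotype and none of the other, the shares were 15.6% of 77 in KO and 10.3% of 29 in WT. Over the zinc finger list, 39 lower H3K9me3 regions in 21 genes had more KO lists at 20 and more WT lists at 14. Between 147 and 148 Mb of chromosome 4, with 9 zinc finger genes such as Zfp534 and Zfp979, 8 regions had more KO and 8 more WT lists. Between 47 and 48 Mb of chromosome 6, with Zfp212, Zfp398 and 4 others, 10 of 34 had more KO lists and 6 more WT lists. Between 115 and 116 Mb of chromosome 5, 5 of 6 had more KO lists, 2 of them in Msi1, which encodes an RNA-binding protein of neural stem cells.

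The strictest form of the comparison took regions with a peak in all 3 lists of a genotype and none of the other. There were 77 such regions in KO and 29 in WT, 0.125% and 0.0471% of all regions. Of the 77, 20 (26.0%) overlapped lower H3K9me3, of the 29 none did, and the share over all regions was 1.88%. The share in lower H3K9me3 went from 3.36% to 7.26% to 26.0% for peaks in 1, 2 and 3 KO lists with no WT list. It was 0.835%, 0.897% and 0% for peaks in 1, 2 and 3 WT lists with no KO list, and 2.83% where all 6 lists had a peak. The 77 and 29 depend on the libraries that enter: without KO replicate 3 the counts were 873 and 34, without WT replicate 3 they were 82 and 783, and without KO replicate 2 they were 87 and 564. Without KO replicate 1 they were 331 and 63, without WT replicate 1 they were 121 and 137, and without WT replicate 2 they were 365 and 59. With lists of equal length, the 10000 peaks of each with the highest −log10 q, the counts were 58 in KO and 62 in WT, so the larger number in KO was not seen there. With 3 against 3, presence at a single region cannot pass a test.

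**Figure D3:**
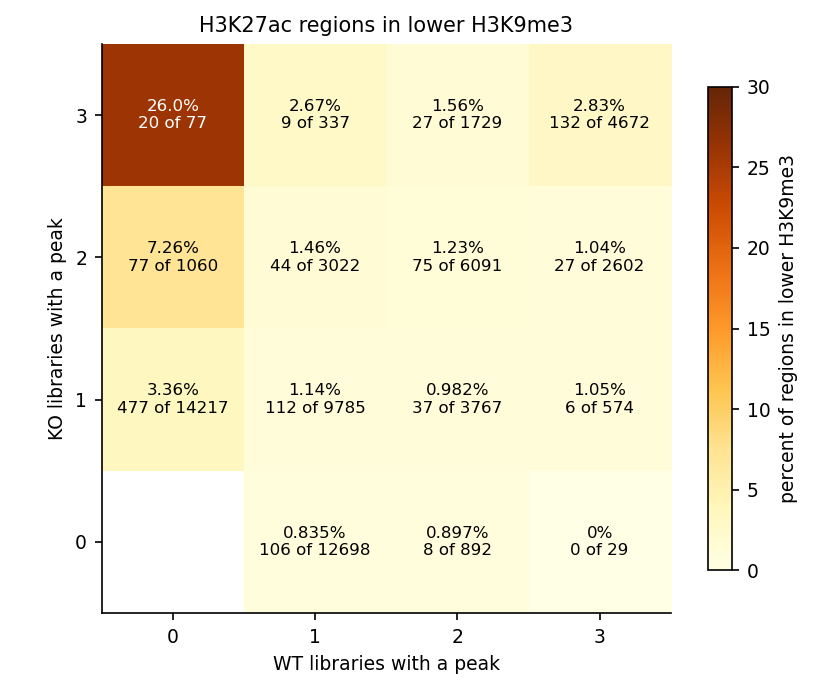
Merged regions are sorted by how many KO lists (y axis) and WT lists (x axis) had a peak; colour and the upper number give the percent in lower H3K9me3, and the lower line gives the counts. The share is 26.0% where all 3 KO lists and no WT list had a peak and 0% in the opposite corner.

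The leading KO-only region by mean percentile (chr18:3711489-3712081) lay between genes, with fold enrichments of 8.12, 9.21 and 7.94 in KO replicates 1 to 3. They stood at percentiles 94.0, 99.5 and 98.7 of their own lists, and the authors' deposited table gives H3K9me3 there a log2 ratio of -1.79. Pcdhgb4 followed. At the start of Rps4l, a ribosomal protein S4-like gene (chr6:148354701-148355423), the values were 7.48, 5.88 and 5.62, where the authors' deposited table has H3K9me3 at a log2 ratio of -1.22. At Gm38450 (chr4:23260763-23261670), whose promoter window is printed above, they were 6.27, 5.95 and 6.06, with -1.68 in the authors' deposited table. These 4 all lay in lower H3K9me3. The next 4 did not: a region between genes on chromosome 13 (89383616 to 89384794), one in Stox2 (chr8:47334466-47334985), one between genes on chromosome 19 (51250254 to 51250850) and one at the starts of Fam151b and Gm52060 (chr13:92484092-92484353). Of the 77 regions, 12 lay at gene starts, 40 elsewhere in genes and 25 between genes. Chromosome 6 held 10 and chromosome 18 held 6, of which 4 and 5 were in lower H3K9me3. One more of those in lower H3K9me3 lay in Zfp872 (chr9:22199663-22201242), a second region at a gene with a start peak in 2 KO lists only.

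The mean percentile had a median of 48.2 over the 77 KO-only regions, with 36 above 50, and of 44.7 over the 29 WT-only regions, with 11 above 50. The leading WT-only region was in Galnt10, an enzyme that starts O-linked glycosylation (chr11:57786806-57787212), with fold enrichments of 6.06, 6.00 and 4.79 in WT replicates 1 to 3. Next came regions in Ints6, a subunit of the Integrator complex (6.16, 4.71 and 5.63), and Kcnh8, a potassium channel (6.16, 4.16 and 5.63). Regions followed in Mdga2 (5.22, 4.44 and 5.91), in Sparc (4.79, 4.47 and 5.03), at the start of Gm35071 (5.31, 3.74 and 5.18), at Gm31931 (5.22, 3.88 and 4.79) and between genes on chromosome 2 (6.95, 4.71 and 3.38). The highest mean percentile was 81.4 in WT-only regions and 97.4 in KO-only regions. None of these 8 lay in lower H3K9me3.

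Strength was then compared at the 4672 regions with a peak in all 6 lists, by the rank of the fold enrichment within each library. No region passed (limma with the title number, here the same as sex, as block, 0 of 4672 at an adjusted p of 0.05, 0%). At an unadjusted p of at most 0.05, 97 were higher in KO (2.08%) and 96 lower (2.05%). KO ranks were above all WT ranks at 169 regions (3.62%) and below them at 162 (3.47%). The differences in the females and in the males showed almost no correlation: across the 4672 regions Pearson's r was 0.0096 and 50.1% had the same sign. Regions are not independent of each other, and those of 1 library share its depth. In the 132 shared regions with lower H3K9me3 the median difference was -0.01 normal scores, 64 were higher in KO, and 62.9% had the same sign in both sexes.

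**Figure D4:**
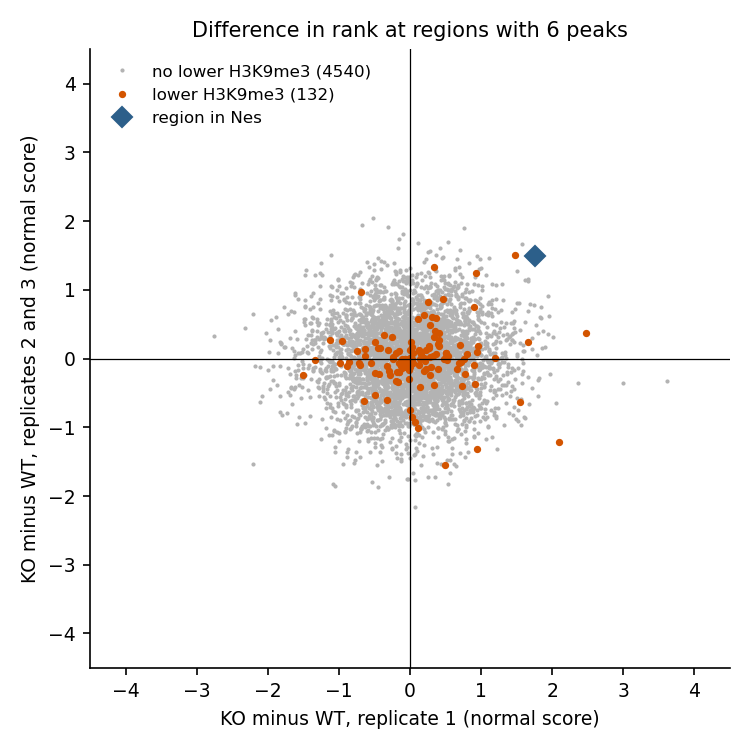
Each point is 1 of 4672 regions with a peak in all 6 lists; the x axis is the KO minus WT difference in normal score in the females and the y axis the same in the males. Orange points are the 132 regions in lower H3K9me3 and the diamond is the region in Nes; the cloud shows no slope, with r = 0.0096.

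The regions with the smallest p are given as values, since none passed. The smallest of all was between genes on chromosome 15 (85645818 to 85646484), 11555 bp from the start of D130051D11Rik. Its percentiles among shared regions were 2.38, 11.4 and 3.55 in KO and 58.7, 57.2 and 45.3 in WT, a difference of -1.76 normal scores (SE 0.43; limma, adjusted p = 0.9996). Itfg2, which encodes a subunit of the KICSTOR complex in amino acid sensing, had start-region percentiles of 96.5, 97.0 and 97.8 in KO and 91.5, 70.1 and 67.1 in WT. Tmem126a, a mitochondrial complex I assembly factor, had 76.6, 89.2 and 87.5 in KO and 35.3, 42.8 and 36.2 in WT. The shared start of Cwc27, a spliceosome-associated isomerase, and Srek1ip1 had 88.2, 83.8 and 88.3 in KO and 66.4, 48.8 and 5.68 in WT. In each of these 3 regions all KO ranks were above all WT ranks. A region in Sox6, a transcription factor of medial eminence interneurons (chr7:115721169-115721938), had 75.8, 37.0 and 52.1 in KO and 17.9, 11.6 and 8.41 in WT, again without overlap. Gm32469 and the start of Eef1akmt2 were also higher in KO without overlap. The starts of Kif15, Cdk5rap1 and Ebag9 were higher in KO with overlapping ranks.

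In the other direction, the start of Txnl4a, a component of the spliceosome, ranked at 57.7, 23.2 and 3.37 in KO and 89.5, 79.9 and 62.3 in WT. Fis1, a mitochondrial fission factor whose promoter is printed above, ranked at 46.2, 18.6 and 2.05 in KO and 83.9, 77.2 and 48.3 in WT. Itm2b, a membrane protein that interacts with the amyloid precursor, ranked at 20.1, 5.14 and 3.23 in KO and 38.1, 37.8 and 66.5 in WT. In all 3 the WT ranks were above the KO ranks, with KO minus WT differences of -1.59, -1.57 and -1.38 normal scores. Mtss2, 3300002I08Rik, Gm50113, Polr3b, Numa1 and Mir99ahg were also lower in KO without overlap, while Etf1, Gna12 and Gm30701 were lower with overlapping ranks. The 3 regions of Mtss2, Polr3b and Numa1 were among the weakest shared regions in KO, with percentiles of at most 10.7.

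**Figure D5:**
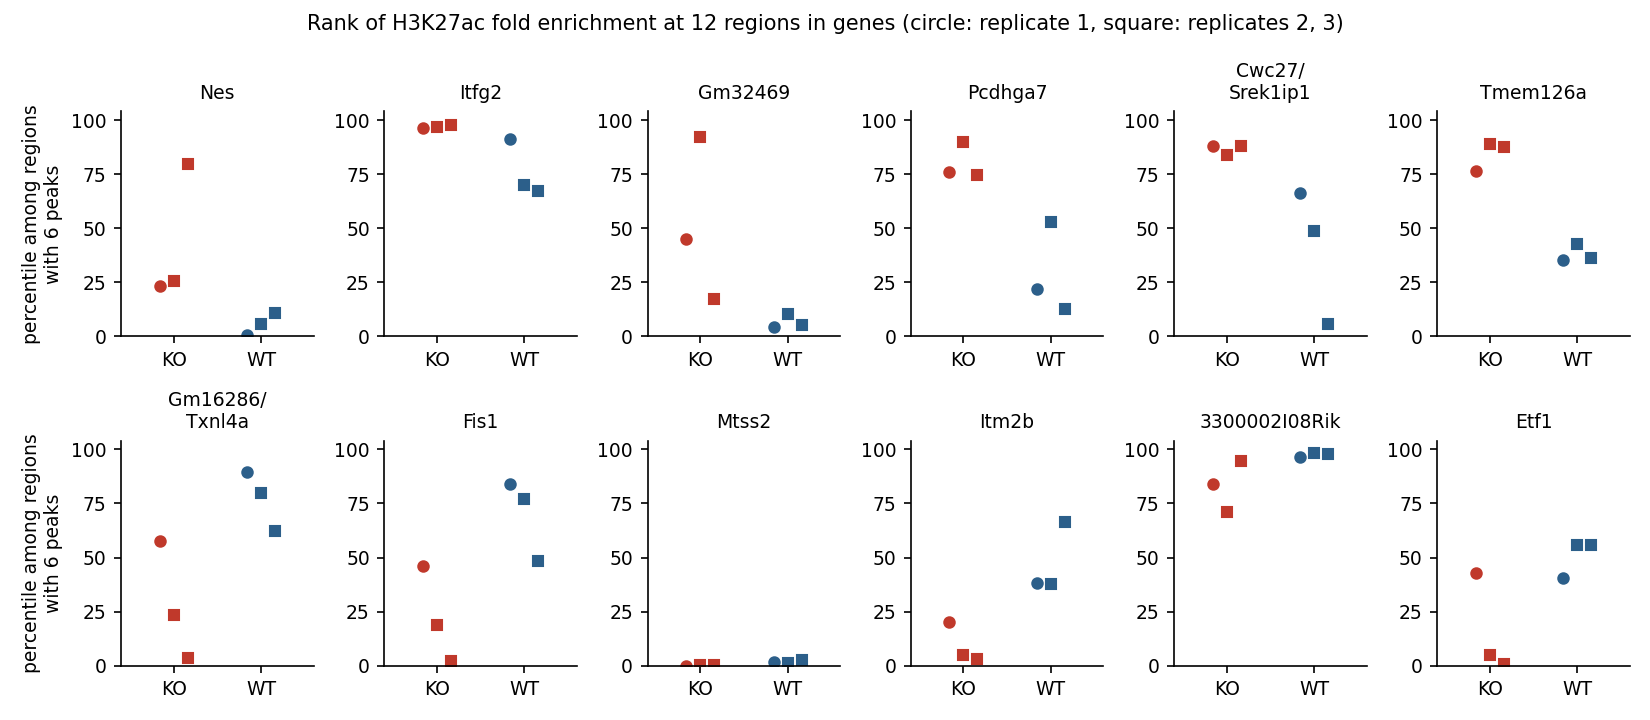
The 6 regions in genes with the smallest p for a higher rank in KO (top) and for a lower rank (bottom); the y axis is the percentile of the fold enrichment among 4672 shared regions in that library. Circles are the females and squares the males; KO and WT do not overlap in 11 of the 12, Etf1 being the exception.

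Because the lists of replicate 3 were short, ranks were also taken over the 12526 regions with a peak in the other 4 lists, a choice made after seeing the data. With the block, each genotype had 1 female and 1 male library here, so the fit leaned largely on spread pooled over regions. In this ranking 2 regions passed (limma, 2 KO against 2 WT libraries, 0.016%), and unadjusted calls were 303 higher (2.42%) and 285 lower (2.28%). The first was in Msl2 (chr9:101097599-101097893), a subunit of a histone acetyltransferase complex, and lay in lower H3K9me3. Its fold enrichment was 17.7 and 9.07 in KO replicates 1 and 2 against 6.61 and 4.99 in WT, a difference of 2.23 normal scores (limma, adjusted p = 8.5e-05). The libraries left out had 8.27 in KO and no peak in WT. The second was the start of Zfp994, a zinc finger gene (chr17:22225059-22226036), with 15.0 and 9.68 in KO against 10.8 and 5.27 in WT (limma, adjusted p = 0.0336). The libraries left out had 4.83 in KO and 5.63 in WT, the opposite order. The region in Nes had a difference of 1.36 here (limma, adjusted p = 0.923).

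Peak width at the 4672 shared regions gave no call either (limma, 0 of 4672, 0%). At an unadjusted p of at most 0.05, 64 were wider and 58 narrower in KO. Widths did not overlap at 105 regions wider in KO (2.25%) and 103 narrower (2.2%). In lower H3K9me3, 87 of the 132 shared regions were wider in KO (65.9%), against 51.1% of all, with a median difference of 0.04 on the log2 scale. The leading wider region was in Soat1, which encodes a cholesterol esterification enzyme (chr1:156450252-156451532). Its peaks were 262, 1281 and 608 bp wide in KO and 241, 204 and 190 bp in WT. At the start of Scp2, a sterol carrier protein, widths were 794, 762 and 395 bp in KO and 427, 381 and 159 bp in WT. The region in Nes was also among the 12 leading wider regions, with 511, 1242 and 1018 bp in KO and 349, 956 and 271 bp in WT. Its widths overlapped, and it did not pass (limma, adjusted p = 1.00). Sema6a, Stox2, Nrcam and Tcim were others of the 12, of which Stox2 and Tcim did not overlap.

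The leading narrower regions were in Smyd3, a methyltransferase gene, with 278, 862 and 182 bp in KO and 742, 1069 and 838 bp in WT, and in Tox, a transcription factor gene, with 141, 489 and 151 bp against 313, 898 and 492 bp. After centring on each library's median, WT was above KO in all libraries at both. Cdkn1b, the cell cycle inhibitor p27, had 151, 607 and 296 bp in KO at its start and 656, 864 and 471 bp in WT, again with no overlap after centring. The smallest peaks a list held were 141, 164 and 151 bp in KO and 138, 176 and 159 bp in WT, so some of these widths sit at the floor of their list.

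Gene starts of gene lists, chosen with earlier results of these data known, were then read from the ranks. A list of H3K27 genes mixed acetyltransferases, deacetylases, acetyl readers and proteins that place or remove methylation of the same lysine. Of its members, 14 of 15 had a start peak and 6 could be ranked in all libraries. None passed, 1 was higher and 5 lower in KO, with a median of -0.56 normal scores against -0.03 over the starts of all genes ranked, of which 1696 were higher and 1938 lower. Over the 4 longer lists 11 could be ranked, 4 higher and 7 lower, with a median of -0.18. Eed and Suz12, subunits of the Polycomb complex that methylates the same lysine, differed by -0.87 (SE 0.48) and -0.63 (SE 0.47). Ep300, an acetyltransferase, differed by -0.48 (SE 0.45). Among progenitor genes, Fabp7, a fatty acid-binding protein of radial glia, had 4.46, 2.55 and 4.01 in KO and 2.94, 2.73 and 2.90 in WT, a difference of 1.07 (SE 0.45). Sox9 differed by -0.14 (SE 0.44), less than its error.

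For H3K9 methylation and silencing genes, 19 of 20 had a start peak but 3 could be ranked in all 6 lists, Morc2a, Cbx5 and Tasor, with differences of -0.58, 0.16 and -0.07. Over the 4 longer lists 16 could be ranked, 2 higher and 14 lower in KO, with a median of -0.50 against -0.03 over all gene starts (4487 higher, 4972 lower). The median was -0.34 in the females and -0.88 in the males. None passed. Atf7ip, the partner of SETDB1 (chr6:136518807-136519556), had fold enrichments of 6.41 and 3.64 in KO replicates 1 and 2 and 8.15, 8.32 and 4.19 in WT, with no peak in KO replicate 3. Zfp809, a zinc finger protein that brings silencing to retroviral sequence (chr9:22225663-22226247), had 6.99 and 3.49 in KO and 10.7, 6.29 and 5.63 in WT, also with no peak in KO replicate 3. At both, the female KO value was below the female WT value, and the only male KO value was below both male WT values. Neither passed over the 4 longer lists (limma, adjusted p = 0.298 and 0.355).

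Zinc finger genes had start peaks at 335 of 391. Over the 4 longer lists 274 could be ranked, 121 higher and 153 lower, with a median of -0.06 and 1 that passed, Zfp994. Zfp930, Zfp879, Zfp58, Zfp809 and Zfp771 followed by p, all with both KO ranks below both WT ranks. In all 6 lists 138 could be ranked, 62 higher and 76 lower, and none passed. Zfp84 had fold enrichments of 5.04, 5.40 and 5.36 in KO and 5.43, 3.55 and 3.44 in WT, and Zfp808 had 6.33, 8.64 and 4.83 against 5.69, 5.82 and 3.38.

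Lists of other cell types and pathways had few start regions to rank. Among astroglial genes 5 of 8 had a start peak, with 4, 5 and 3 in KO replicates 1 to 3 and 3, 5 and 1 in WT. Aldoc, a glycolytic enzyme of astrocytes, had one in 3 KO lists and 1 WT list, and Gfap in 2 KO lists and 1 WT list. Gja1, a gap junction protein, was ranked in all lists and differed by -0.66 (SE 0.41). Over the 4 longer lists 2 astroglial genes could be ranked, 0 higher and 2 lower in KO, with a median of -0.79. In the interneuron lists Zeb2 differed by 0.64 (SE 0.44), Sox6 at its start by -0.19 (SE 0.38) and Prox1 by 0.01 (SE 0.44). Of the striatal list only Foxp1 was ranked, at -0.36 (SE 0.50). Olig1 and Nkx2-2 had peaks in all 6 lists and differed by 0.04 and -0.01. Imprinted genes ranked in all lists differed by at most 0.59, with Gnasas1 at 0.59 and Commd1 at -0.29. Of p53 targets 1 was higher and 4 lower, Mdm2 differing by -0.53 (SE 0.50). Stat2, a transcription factor of interferon signalling, differed by 0.37 (SE 0.47). Germline genes, often silenced by H3K9 methylation, had start peaks at 2 of 20, Dazl in KO replicate 2 and Stag3 in 2 KO lists, and none in WT. Serotonin genes had 2 of 12, Htr1b and Htr3a, each in 1 KO list. Cortical excitatory genes had 2 of 14 and neuronal genes 4 of 10. None of the 21 lists held a member that passed in the ranking of all 6 lists.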

How the data were processed

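H3K27ac was measured by native ChIP-seq in 6 libraries. Bowtie2 2.3.4.3, MACS2 and mm10 are named in the submitters' processing notes. The authors deposited 1 narrowPeak list per library, with a fold enrichment ratio, a −log10 p and q and a display score per peak. The authors' deposited H3K9me3 table gives, per region, a mean normalised signal per genotype, a log2 fold change and an adjusted p-value, and regions at or below 0.05 were used. The depth of the libraries is unknown.

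Peaks on chromosomes 1 to 19 were merged where they shared 1 bp. At regions with a peak in all 6 lists, the highest fold enrichment per library was ranked, turned into normal scores and fitted with limma 3.58.1 (R 4.3.3), with the first title number as block and a mean-variance trend; adjusted p-values follow Benjamini and Hochberg. Log2 of the summed peak width, centred on the library's median, was fitted the same way. Single values per library were compared with a two-sided exact permutation test. Its use for the shares of peaks in lower and higher H3K9me3 was added after seeing the data. The scripts were tested on simulated data. The correlation of deviations from the genotype mean was 0.50 between the female KO and WT libraries. Among the males it was 0.29 and 0.30 for KO and WT replicates 2 and 3, and 0.073 and -0.011 for the pairs across replicates 2 and 3. Between title numbers it was from -0.33 to -0.22. The limma p-values use a spread between these animals that the fit pools in part over all regions fitted. A gene start region lay within 1 kb of a RefSeq gene start; 21294 of 47042 genes had no stranded start and both ends were used.

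Named regions were Setdb1 and Nes, the 12 regions in genes with the smallest p in each direction for rank and for width, the 8 leading regions of each genotype only, up to 4 members of each gene list, and up to 8 regions where H3K9me3 and presence both differed. Members and lists were chosen with earlier results of these data known. Alternatives were other merging, thresholds, scales, blocks and libraries left out. A few genes that these rules name are not reported here.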

Additional observations from a re-analysis of the deposited data

Results flagged for a closer look

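Peaks on the X chromosome took no part in the comparisons. Between 30 and 35 Mb of X, WT replicate 3 had 127 H3K27ac peaks, WT replicates 1 and 2 had 0 and 17, and KO replicates 1 to 3 had 0, 8 and 14. A signal in data that the comparisons do not use drew attention to it, and it belongs to 1 library.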

How the results depend on the processing

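Alternatives that leave out both replicate 3 libraries were chosen after seeing the data, as were those on the balance of lower H3K9me3 regions other than a log2 fold change of at least 1 and a cover of at least 50%. For the percent of peaks in lower H3K9me3, so were the top 10000 peaks and leaving out chromosome 9 from 3 to 4 Mb. Without the replicate block, 0 regions passed for rank and 0 for width, as with it. Leaving out 1 library gave 0 to 1 regions for rank, the 1 without WT replicate 3, and 0 for width; both replicate 3 libraries left out gave 2 for rank. No other setting gave a call for rank or width. KO-only regions numbered 24 at a −log10 q of at least 5, 900 without both replicate 3 libraries and 82 to 873 with 1 library left out. WT-only regions numbered 62 among the top 10000 peaks, 7 at a −log10 q of at least 5, 800 without both replicate 3 libraries and 34 to 783 with 1 library left out. The difference in peaks per library, KO minus WT, was -381.3 and turned to 850.3 at a −log10 q of at least 5 and 2165 in the males; with 1 library left out it ran from -8094 to 7132, at 7132 without KO replicate 3, 1965.5 without WT replicate 1 and 4546.5 without WT replicate 2. The share of lower H3K9me3 regions with more KO lists minus that with more WT lists was 40.6 percentage points (all regions -0.19). It was 22.8 among the top 10000 peaks (all regions 0.218) and 26.2 in the females (all regions -13.8). With 1 library left out it ran from 11.7 without KO replicate 2 (all regions -40.8) to 49.2 without WT replicate 2 (all regions 26.1). The balance of all regions thus moved with the libraries as well. The difference in the percent of peaks in lower H3K9me3 kept its direction in all 12 settings run. The causes were not tested. Unknown depth and lists of 11252 to 41705 peaks limit what absence of a peak can show.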
